A study of Mus musculus with 10 samples.

Results

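The genes followed here, in the hippocampus of the Ts65Dn mouse model of Down syndrome, belong to the ubiquitin and proteasome system: the ubiquitin ligase gene Ttc3, the deubiquitinase gene Usp16, and the proteasome assembly genes Psmg1, Psmg2, Psmg3, Psmg4 and Pomp. They were chosen by gene symbol and are 7 of 19936 genes that had a transcript cluster (a set of array probes for 1 transcript or part of it) of their own. Ttc3, Usp16 and Psmg1 lie on the part of chromosome 16 that Ts65Dn mice carry in 3 copies, and the other 4 genes are in 2 copies in both genotypes.

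RNA of 5 Ts65Dn mice and 5 control littermates was hybridised to Affymetrix Mouse Gene 1.0 ST arrays, 1 for each animal. Ts65Dn mice carry a small extra chromosome that holds part of chromosome 16 and, in addition, the genes next to the centromere of chromosome 17, which have no counterpart on the human chromosome that is trisomic in Down syndrome. Controls are littermates without that chromosome. All mice were males aged 16 weeks on an F1 hybrid B6C3B background, and the left and right hippocampus of an animal gave a single RNA. Values are log2 signals after robust multi-array average (RMA) processing by the authors, so a difference of 1 is a doubling.

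The proteasome is the protease that degrades proteins tagged with ubiquitin. Its 20S core is a stack of rings of alpha and beta subunits, capped by a 19S particle with a base and a lid. Psmg1 and Psmg2 form a dimer that guides the alpha ring, Psmg3 and Psmg4 form another that helps to close it, and Pomp guides the beta subunits and is degraded once the core is complete. Ttc3 encodes a RING-type ubiquitin ligase that was reported in cultured human cells to bind phosphorylated Akt. Usp16 encodes an enzyme that removes ubiquitin from histone H2A, the mark that Polycomb repressive complex 1 places.

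Promoter letters are shown first, because members on chromosome 16 and partners in 2 copies shared short motifs in windows around their starts. RefSeq windows (GRCm38.p6) from 250 bases before to 50 bases after the transcription start were read for 6 of the 7 members. No window of Psmg2 was among those read. Bases before the start are given below, 5′ to 3′ on the strand of the gene, with motif matches in capitals. For Ttc3, whose transcription start in this table lies inside the annotated span of the gene, 30 bases are given.
Ttc3, chr16:94370709-94370738, plus strand: gagggggcgacgcggcgactGCGCATGCGC
Usp16, chr16:87454835-87454984, plus strand: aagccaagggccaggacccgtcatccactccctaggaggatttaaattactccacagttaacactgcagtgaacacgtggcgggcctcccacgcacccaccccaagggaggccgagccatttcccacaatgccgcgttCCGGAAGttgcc
Psmg1, chr16:95990961-95991110, minus strand: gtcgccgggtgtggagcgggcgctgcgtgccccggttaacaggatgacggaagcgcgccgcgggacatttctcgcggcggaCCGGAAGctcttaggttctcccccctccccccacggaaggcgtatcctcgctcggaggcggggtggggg
Psmg1, site after the start, chr16:95990911-95990937, minus strand: gcgggccggcGCGCATGCGCtgtctgg
Psmg3, site across the start, chr5:139826877-139826900, minus strand: cggacaggaaCCGGAAGttctcgc
Pomp, chr5:147860478-147860627, plus strand: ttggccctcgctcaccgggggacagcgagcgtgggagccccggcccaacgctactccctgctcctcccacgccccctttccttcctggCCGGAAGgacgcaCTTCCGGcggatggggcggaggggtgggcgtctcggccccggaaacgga

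Short motifs were searched on both strands, and they were chosen with these sequences in view. A share in the members above that of all windows can follow from this choice and is not read as a result. The core of ETS-family sites, CCGGAAG, lay in the windows of 4 of 6 members (Usp16, Psmg1, Psmg3 and Pomp) and in 8.86% of all 32851 windows. It began 12 bases before the start of Usp16, 69 before that of Psmg1 and at base 5 after that of Psmg3, and Pomp held it once as written and once as CTTCCGG, its reverse complement. GCGCATG, from the core of nuclear respiratory factor 1 sites, lay in 3 of 6 windows (Ttc3, Psmg1 and Psmg4) and in 3.91% of all. In Psmg4, whose letters are not given, it began 154 bases before the start, as its reverse complement. In Ttc3 and Psmg1 it lay in both orientations, overlapping by 4 bases, as the capitals show, and 0.971% of all windows held this arrangement. The overlapping pair ended at the last base before the start of Ttc3 and began at base 34 after that of Psmg1. TGACNNNGC, the core through which Nfe2l1 and Nfe2l2 act on proteasome genes, lay in 0 of 6 and in 12.4% of all windows. These are letter matches in a short window, and no binding was measured.

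The arrays held the markers of the labelled tissue. Array medians lay between 7.382 and 7.411 over the tested rows. Of 46 listed markers of hippocampal neurons, neighbouring tissues and glia, 42 were measured and 0 passed the test. The 8 markers of hippocampal neurons averaged 9.75 to 10.14 in Ts65Dn mice and 9.98 to 10.07 in controls. The median log2 difference of these 8 was 0.05. Against that median, Wfs1, a marker of pyramidal neurons of the hippocampus, had a log2 difference of -0.35 ± 0.069 (SE, limma adjusted p = 0.0925). It had 10.34 to 10.73 in Ts65Dn mice and 10.84 to 10.97 in controls, without overlap. Wfs1 was singled out after its values were seen, and the others of the 8 lay between -0.14 (Fibcd1) and 0.15 (Spink8). Of all tested rows, 0.884% had groups that did not overlap, in either direction. The part of Wfs1 in the results on the members was not tested. The 9 measured markers of choroid plexus, the tissue next to the hippocampus that makes cerebrospinal fluid, averaged 6.86 to 9.64 in Ts65Dn mice and 6.88 to 9.41 in controls, so mice of each genotype differed widely in them.

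Ttc3 and Psmg1 rose in Ts65Dn hippocampi by 1.3-fold and 1.28-fold, and both passed the test. Usp16 was 1.35-fold higher, with every Ts65Dn mouse above every control, but it did not pass after adjustment over all rows. Thus 2 of 3 members in 3 copies were called higher and 0 of 4 members in 2 copies were called, where 0.312% of all 23410 tested rows were called higher and 0.00427% lower. The call is an adjusted p under 0.05 in limma, which fits all rows together. In a tissue extract, a change in the cells of a type and a change in RNA per cell cannot be told apart.

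Ttc3 (chromosome 16, 94370625 to 94469222) had log2 signals of 11.97, 12.01, 12.06, 12.09 and 11.98 in Ts65Dn mice 1 to 5, against 11.60, 11.70, 11.68, 11.66 and 11.59 in control mice 1 to 5. The groups were far apart for their spread and did not overlap. The mean was 12.02 ± 0.0528 in Ts65Dn mice and 11.65 ± 0.0496 in controls (SD, n = 5 each). The log2 difference of 0.38 ± 0.039 (SE) had an adjusted p of 0.00184 by limma, and the gene stood at place 10 of all rows by p. The interval of its fold ran from 1.22 to 1.38 (95%).

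Psmg1 (chromosome 16, 95979933 to 95990960), the subunit of the alpha ring chaperone that is in 3 copies, had 8.68, 8.76, 8.62, 8.65 and 8.46 in Ts65Dn mice 1 to 5, against 8.30, 8.41, 8.29, 8.18 and 8.20 in control mice 1 to 5. The lowest Ts65Dn mouse, number 5, was just above the highest control, number 2. The mean was 8.64 ± 0.109 in Ts65Dn mice and 8.28 ± 0.0912 in controls (SD, n = 5 each), a log2 difference of 0.36 ± 0.06 (SE, fold interval 1.17 to 1.41, limma adjusted p = 0.0307). The call was held in 2 of the 10 fits that left out 1 mouse, those without Ts65Dn mouse 5 and without control mouse 2, and it was lost without any one of the other 8, with the log2 difference between 0.33 and 0.40.

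Usp16 (chromosome 16, 87454985 to 87483515) had 8.65, 8.72, 8.29, 8.86 and 8.36 in Ts65Dn mice 1 to 5, against 8.13, 8.24, 8.07, 8.12 and 8.12 in control mice 1 to 5. Ts65Dn mice 1, 2 and 4 were well above the controls, while mice 3 and 5 lay just above the highest control. The mean was 8.58 ± 0.243 in Ts65Dn mice and 8.14 ± 0.0628 in controls (SD, n = 5 each). The log2 difference was 0.44 ± 0.098 (SE, fold interval 1.17 to 1.57), with an adjusted p of 0.215 by limma. By p it stood at place 102, where the rows called fill the first 74 places. A fold change rank method, of the kind the study used, called Usp16 and Psmg3 as well as Ttc3 and Psmg1. It called 2.9% of all rows higher and 5.36% in either direction. Its cut-offs are set on the spread of all rows, so the share it calls is largely fixed by construction. A call by it places a gene near an end of the ranking and carries no error rate.

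For each of these 3 genes the exact permutation test of the single gene gave p = 0.00794 (two-sided), the smallest that 5 against 5 mice allow. Over all tested rows, every Ts65Dn mouse was above every control in 0.577%. With the mean of the choroid plexus markers as a covariate, chosen after its spread was seen, the log2 difference was 0.38 for Ttc3 (limma adjusted p = 0.004), 0.42 for Usp16 (0.179) and 0.35 for Psmg1 (0.0502), so Psmg1 was no longer called. That mean was 7.04, 9.64, 6.86, 9.03 and 8.04 in Ts65Dn mice 1 to 5, so it was high in mice 2 and 4, which had the highest Usp16, and low in mouse 1, which had the next highest.

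On the chromosome 16 segment, 42 of 127 measured genes were called higher, with a median fold of 1.15 over the 127 and 1.33 over the 42. No minimum signal was set for the 127, so dim genes count in their median and in the ranks. Usp16 ranked 23, Ttc3 39 and Psmg1 45 by fold among the 127. The intervals of Ttc3 and Psmg1 lay below the copy ratio of 1.5, and that of Usp16 included it. The median of the 42 called genes, 1.33, was below 1.5 as well, so this does not set Ttc3 and Psmg1 apart. Whether array folds understate the change in RNA was not tested.

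**Figure D1:**
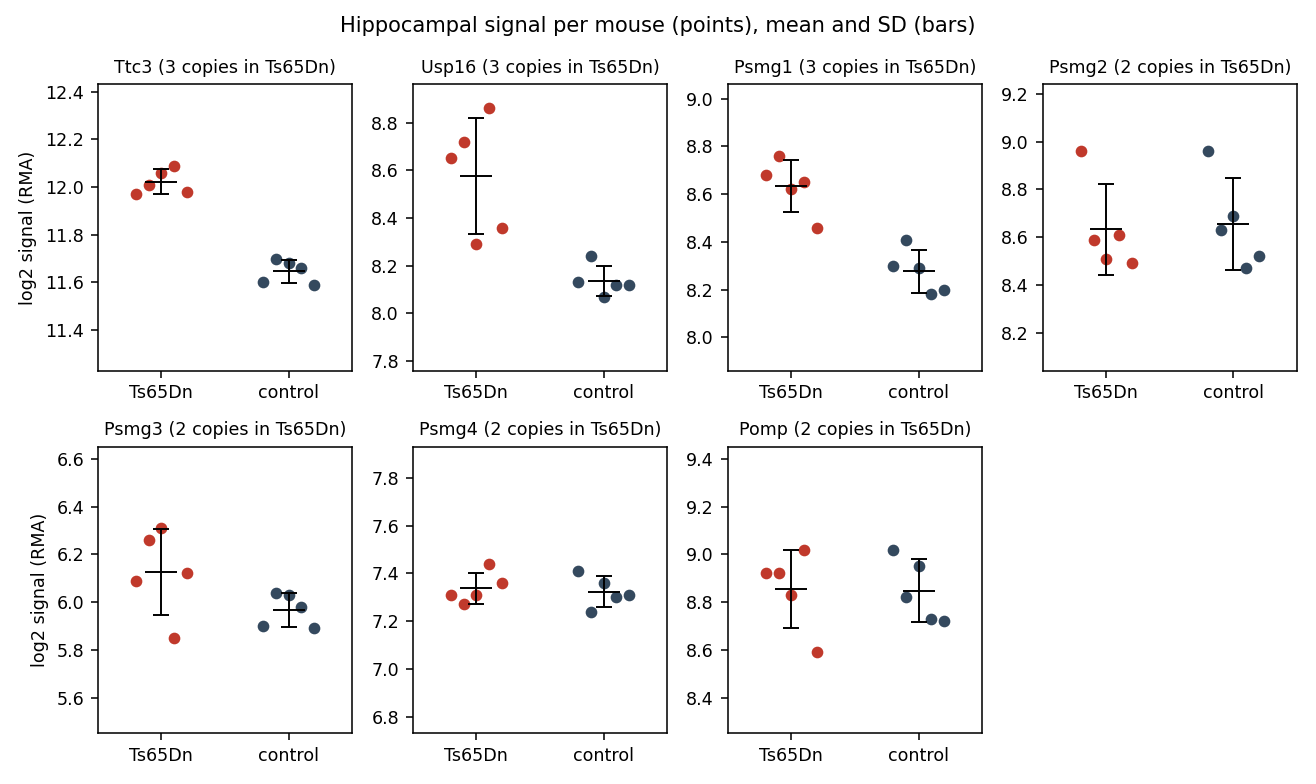
Log2 signal (RMA) of the 7 members in each mouse, Ts65Dn in red and control in dark, with the mean and SD (n = 5 each); every panel spans the same range of log2 units. Groups do not overlap for Ttc3, Usp16 and Psmg1 and overlap for the other 4.

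The fold changes of the 3 genes were then set against each other, as the per-mouse difference of their log2 signals. Usp16 minus Ttc3 was 0.06 ± 0.11 (SE, 95% interval -0.20 to 0.32, exact permutation p = 0.627). Usp16 minus Psmg1 was 0.08 ± 0.092 (-0.13 to 0.29, exact permutation p = 0.46), and Ttc3 minus Psmg1 was 0.02 ± 0.062 (-0.13 to 0.16, exact permutation p = 0.786). Adjusted over the 3 pairs, each p was 0.786. The data thus leave room for differences of up to 0.32 between Usp16 and Ttc3 and up to 0.16 between Ttc3 and Psmg1 on the log2 scale.

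The partners of Psmg1 in 2 copies did not pass the test. Psmg2, with which Psmg1 forms its dimer, had 8.96, 8.59, 8.51, 8.61 and 8.49 in Ts65Dn mice, against 8.96, 8.63, 8.69, 8.47 and 8.52 in controls. The groups overlapped throughout, and mouse 1 was the highest in each. The log2 difference was -0.02 ± 0.11 (SE), with a fold of 0.986 and an interval of 0.838 to 1.16 (exact permutation p = 0.825, n = 5 each).

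Psmg3, a subunit of the other alpha ring chaperone, had 6.09, 6.26, 6.31, 5.85 and 6.12 in Ts65Dn mice, against 5.90, 6.04, 6.03, 5.98 and 5.89 in controls. Ts65Dn mouse 4 was the lowest of all 10 and the other 4 were above every control. The log2 difference was 0.16 ± 0.077 (SE, fold 1.12, interval 0.993 to 1.26, exact permutation p = 0.0952, n = 5 each), and the limma adjusted p was 1. Its mean signal was at percentile 31.1 of all tested rows, and RMA compresses ratios of dim rows.

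Psmg4, the dimer partner of Psmg3, had 7.31, 7.27, 7.31, 7.44 and 7.36 in Ts65Dn mice, against 7.41, 7.24, 7.36, 7.30 and 7.31 in controls. The groups lay on top of each other, with a fold of 1.01 (interval 0.942 to 1.08, exact permutation p = 0.778, n = 5 each). Pomp, which acts on the beta ring, had 8.92, 8.92, 8.83, 9.02 and 8.59 in Ts65Dn mice, against 9.02, 8.82, 8.95, 8.73 and 8.72 in controls. Here too the groups overlapped, with Ts65Dn mouse 5 the lowest of all, and the fold was 1.01 (interval 0.884 to 1.14, exact permutation p = 0.952, n = 5 each). The upper bounds of Psmg2, Psmg4 and Pomp thus lay at 1.16, 1.08 and 1.14.

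**Figure D2:**
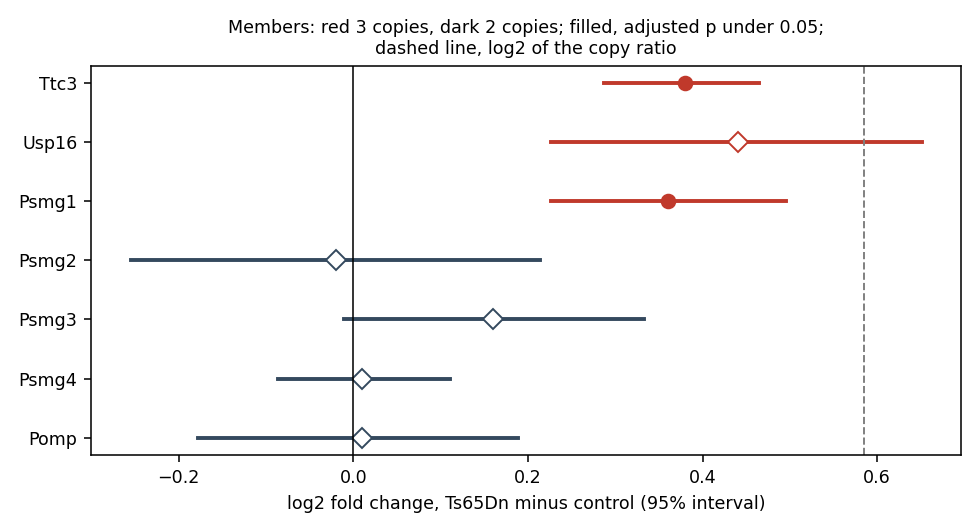
Log2 fold change of Ts65Dn minus control with its 95% interval for each member; red marks 3 copies and dark 2 copies in Ts65Dn, a filled circle an adjusted p under 0.05, and the dashed line the log2 of the copy ratio of 1.5. Intervals of the genes in 3 copies lie above 0, and those of the genes in 2 copies include 0.

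Of the partners, Psmg2 alone forms a dimer with Psmg1. The log2 signal of Psmg1 minus that of each partner was taken in every mouse. Only its change between genotypes is read, as signals of different transcript clusters share no scale. Psmg1 minus Psmg2 ranged from -0.28 to 0.17 in Ts65Dn mice and from -0.66 to -0.22 in controls, a difference of the means of 0.38 with some overlap. For Pomp the ranges were -0.37 to -0.12 in Ts65Dn mice and -0.72 to -0.41 in controls, which did not overlap. Against Psmg4 the difference of the means was 0.35 and against Psmg3 0.20, with overlapping groups. These values restate the fold change of Psmg1 beside those of its partners and were not tested.

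Within genotypes the members did not vary as 1 block. After the mean of each genotype was subtracted, Pearson's r over the 10 arrays was 0.685 for Psmg1 with Pomp, 0.663 for Psmg2 with Pomp, 0.43 for Psmg1 with Psmg2 and -0.697 for Psmg3 with Psmg4. For the genes in 3 copies it was 0.573 for Usp16 with Psmg1, 0.172 for Usp16 with Ttc3 and 0.288 for Psmg1 with Ttc3. The points of a pair share the RNA and the array of a mouse, and these values are descriptions.

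Over all 19936 genes the ones that varied most like Ttc3 by this measure were Timm22 (r = 0.97), of the mitochondrial import machinery, Camsap1 (0.952), which binds microtubule ends, and the vomeronasal receptor gene Vmn1r54 (0.941). Those most like Usp16 were Mbip (0.972), Guf1 (0.96), a mitochondrial translation factor, and Cfap20 (0.959). Those most like Psmg1 were the cytokine gene Mif (0.965), Rpusd4 (0.964), which modifies mitochondrial RNA, and Trmt112 (0.96), a cofactor of methyltransferases. All 9 lie on other chromosomes, none passed the test, and each r is the top of a search over all genes with 10 arrays.

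The proteasome itself was examined next, in lists of its subunits, which are in 2 copies. None of the 32 measured constitutive 20S and 19S subunits (of 33) was called in either direction by limma, and 0 were at an unadjusted p under 0.05, where 3.16% of all rows were. The rank method called 0 of them as well. Their log2 differences lay between -0.04 and 0.09, with a median of 0.04, against 0.00 over all genes, and the intervals of the folds lay between 0.874 and 1.26. A positive difference was measured for 28 of the 32 (87.5%), against 47.6% of all genes. The mean of the 32 in each mouse lay between 10.08 and 10.20 in Ts65Dn mice (median 10.13) and between 9.97 and 10.15 in controls (median 10.10), so the groups overlapped. These subunits were read on the same arrays and are not independent of each other.

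Among the alpha subunits, which form the ring that Psmg1 and Psmg2 build, the smallest p-values were those of Psma6 (log2 difference 0.09 ± 0.11, SE) and Psma2 (0.07 ± 0.12). Among the beta subunits they were those of Psmb3 (-0.04 ± 0.048) and Psmb4 (0.08 ± 0.094). The median was 0.02 in each list of 7. The immunoproteasome subunits Psmb8, Psmb9 and Psmb10, which replace catalytic beta subunits after interferon, had a median of -0.01. In Psmb10 it was -0.04 ± 0.075 and in Psmb9 -0.01 ± 0.04.

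In the 19S base, where the ATPases sit, 9 of 10 subunits were measured and had a median of 0.06, led by the ATPase gene Psmc5 (0.09 ± 0.059) and by Psmd1 (0.06 ± 0.053). In the lid the median of 9 subunits was 0.03, led by Psmd14 (0.06 ± 0.037), the deubiquitinase of the lid, and Psmd12 (0.05 ± 0.043). The chaperones of the base Psmd10 and Psmd5 had 0.07 ± 0.052 and 0.07 ± 0.053, with 3 of 4 measured. Among activators and the inhibitor, Psme3 had 0.05 ± 0.042 and Psme2 0.12 ± 0.11. Of the regulators of proteasome genes 3 of 4 were measured, with 0.08 ± 0.12 for Nfe2l2 and 0.01 ± 0.032 for Ngly1, the enzyme that processes the Nfe2l1 protein. None of these genes passed the test, and all of these values were smaller than the 0.36 of Psmg1.

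**Figure D3:**
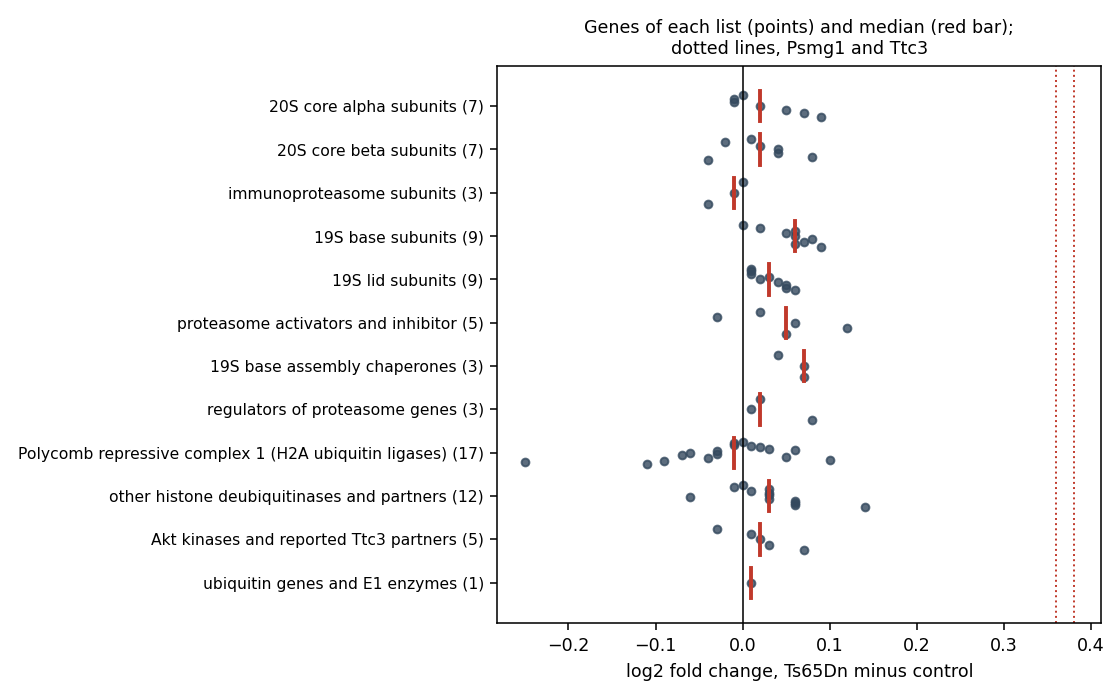
Log2 fold change of Ts65Dn minus control for each measured gene of 12 lists (points; number of genes in brackets) and the median of the list (red bar); the dotted lines mark Psmg1 at 0.36 and Ttc3 at 0.38. The points of the proteasome lists lie between -0.04 and 0.12, and 0 genes of the lists passed the test.

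The genes that place or remove ubiquitin on histones were then set beside Usp16. Of Polycomb repressive complex 1, whose mark Usp16 removes, 17 of 19 genes were measured and 0 were called by limma, with a median log2 difference of -0.01 and 6 positive values. The rank method, which called 5.36% of all rows, called 1 of them, Cbx7, and 1 of the deubiquitinases, Usp3. Cbx2 had -0.11 ± 0.051 (SE, limma adjusted p = 1) and ranged from 7.50 to 7.74 in Ts65Dn mice and from 7.68 to 7.82 in controls. Cbx7 had -0.25 ± 0.13, with 8.83 to 9.31 in Ts65Dn mice and 8.90 to 9.57 in controls. The ligase genes Rnf2 and Ring1 had 0.02 ± 0.05 and 0.01 ± 0.045.

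Of the other histone deubiquitinases and their partners, 12 of 13 were measured, 10 had a positive difference and 0 were called. Usp3, which also acts on H2A, had 0.14 ± 0.058 (SE, 8.81 to 9.10 in Ts65Dn mice and 8.72 to 8.94 in controls), with a limma adjusted p of 1. It was the only gene of the 81 measured in all lists (of 93) with an unadjusted p under 0.05, where 1.73% of all rows were at such a p with a positive difference and 1.43% with a negative one. Atxn7l3, a subunit of the SAGA deubiquitinase module, had 0.06 ± 0.045.

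Beside Ttc3 stood the Akt kinases and other proteins that were reported to bind it, with 5 of 6 genes measured and 0 called. Akt2 had 0.07 ± 0.056, Akt1 0.02 ± 0.04 and Smurf2, another ubiquitin ligase, 0.03 ± 0.051. Of the ubiquitin genes and activating enzymes just Uba6 had a transcript cluster of its own (0.01 ± 0.089), so the supply of ubiquitin was not read here.

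The neighbours of the 3 genes on chromosome 16 are in 3 copies as well. Starts of Usp16 and Ttc3 lie 6.92 Mb apart, and those of Ttc3 and Psmg1 1.61 Mb. Within 0.5 Mb, 5 of 8 measured neighbours of Usp16, 4 of 9 of Ttc3 and 4 of 10 of Psmg1 were called higher and 0 lower, with median log2 differences of 0.31, 0.30 and 0.10. The median of the Ttc3 neighbours is the value of Pigp, and with the other row of that gene, chosen after its values were seen, it was 0.14. Usp16 itself was not called, though its log2 difference of 0.44 ± 0.098 (SE) lay above the median of 0.31 of its neighbours. That median includes neighbours near 0, such as Map3k7cl (0.05). The 5 called neighbours of Usp16 ran from 0.24 (Bach1) to 0.63 (Cct8), and Usp16 lay within that range. On the whole segment, 42 of 127 measured genes were called higher.

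The span of Usp16 shares 191 bases with that of Cct8, a chaperonin subunit gene. Cct8 had 11.16 ± 0.113 in Ts65Dn mice and 10.54 ± 0.156 in controls (SD, n = 5 each; 1.54-fold, limma adjusted p = 0.00387). Rwdd2b, on the other side of Usp16, was 1.38-fold higher (limma adjusted p = 0.0166). Next to Psmg1, and 1128 bases from it, lies Brwd1, a gene of a chromatin reader, which was 1.42-fold higher (limma adjusted p = 0.00714). The transcription factor gene Ets2 on the other side of Psmg1 was 1.29-fold higher (limma adjusted p = 0.00364). All 4 had groups that did not overlap.

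Vps26c, a gene of endosomal sorting, follows Ttc3 and was 1.46-fold higher (limma adjusted p = 0.00628). Pigp, a gene of GPI anchor synthesis whose span shares 391 bases with that of Ttc3, had 2 rows and neither was called. The brighter row had 9.98 in Ts65Dn mice and 9.68 in controls (1.23-fold, limma adjusted p = 0.62), and its identifier stands among rows of another chromosome (0 of 10 neighbouring rows on chromosome 16). The other row, with 10 of 10 on chromosome 16, had 8.51 in Ts65Dn mice and 8.37 in controls (1.11-fold, limma adjusted p = 0.772). Where its probes lie was not used here. Of the members, each had 1 row, and 9 or 10 of the 10 neighbouring rows were on its chromosome.

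**Figure D4:**
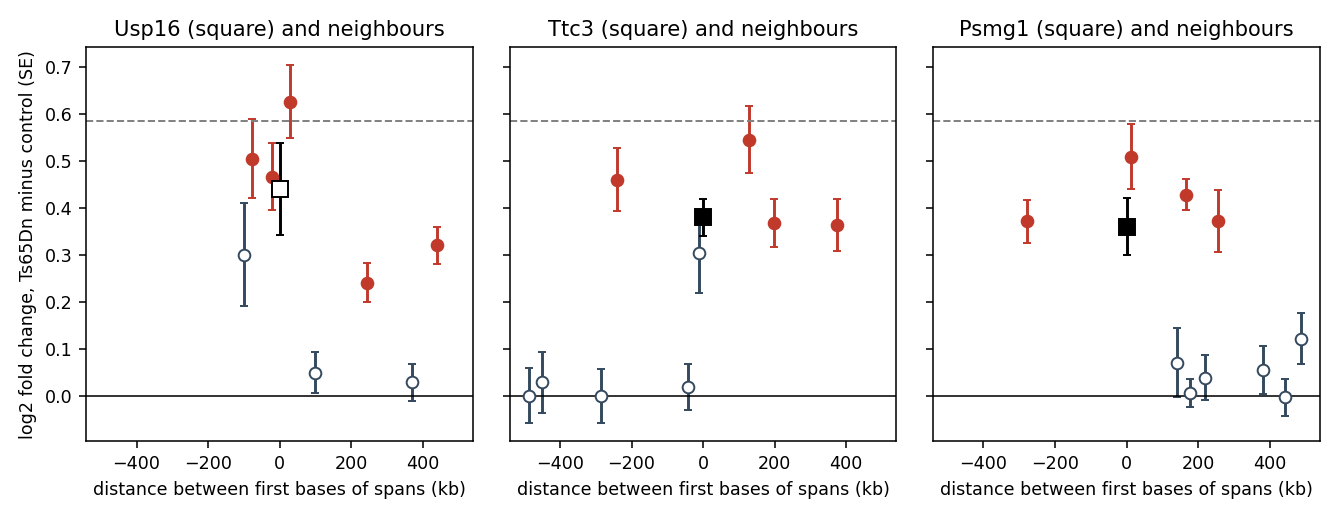
Log2 fold change of Ts65Dn minus control (SE, n = 5 each) of measured genes within 0.5 Mb of Usp16, Ttc3 and Psmg1 (squares) against the distance between the first bases of the gene spans in kb; filled symbols have an adjusted p under 0.05 and the dashed line is the log2 of 1.5. Called neighbours, 5, 4 and 4 in number, lie beside others near 0; Pigp, left of Ttc3, is shown by its brighter row.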

How the data were processed

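Hippocampal RNA of 10 mice was measured, and the authors deposited log2 signals, made by RMA from the scanner intensities. The submitters' notes name RMA, limma and mm10 without versions. These steps were not repeated. Rows were named through the platform annotation: of 35556 rows, 21789 had 1 symbol, 1621 several and 12146 none, and of the first 21698 were matched to RefSeq genes by gene number and 3 by accession. A gene was represented by its row with the highest mean. The 23410 rows with a symbol were fitted with lmFit and eBayes (limma 3.58.1, R 4.3.3), on genotype alone, and p-values were adjusted by Benjamini-Hochberg, with a threshold of 0.05; tests were two-sided. Single values were tested by exact permutation over 252 allocations (scipy 1.17.1). The number of mice limits the precision.

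Members and lists were chosen with earlier results of these data known. Genes named are the members and the nearest measured gene on each side of the 3 in 3 copies. In each list they are the called genes and the 2 with the smallest p. The 3 genes most like each of Ttc3, Usp16 and Psmg1 are named as well. Ring1, Rnf2, Akt1, Psmb8 and Nfe2l1 were named in addition for their roles. The marker Wfs1 was named after its values were seen. Alternatives were the rows tested, a minimum mean of 6, 3 normalizations, 2 variance models, a rank method written anew after the kind the study used, the replicate number as a block, the choroid plexus covariate, and leaving out each array.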

Additional observations from a re-analysis of the deposited data

Results flagged for a closer look

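In 4 of 90 groups of 5 mice (45 named genes in both genotypes), 1 mouse stood apart from the other 4 by Dixon's criterion at 95%, which chance meets in about 1 of 20 groups. Psmg2 was 8.96 in Ts65Dn mouse 1, and the next highest Ts65Dn mouse had 8.61. Psmb10 was 9.18 in Ts65Dn mouse 5, with the next at 8.94. Rpusd4 was 6.69 in Ts65Dn mouse 5, with the next lowest at 6.86. Psmb9 was 7.66 in control mouse 1, with the next at 7.51.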

How the results depend on the processing

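Under 11 alternatives that leave out no array, Ttc3 was called in each, with log2 differences of 0.35 to 0.38. Psmg1 kept 0.35 to 0.36 but missed the threshold with all 35556 rows tested (0.36, limma adjusted p = 0.0565) and with the choroid plexus covariate (0.35, 0.0502), which leaves 1 of the 3 genes in 3 copies called under each. The rank method calls a share of rows that is largely fixed by its cut-offs, here 1255 rows against 74 in limma. It called Usp16 (0.44) and Psmg3 (0.16), and so all 3 members in 3 copies and 1 in 2 copies. It also called 2 genes of the lists, Usp3 and Cbx7. Psmg2 changed sign with array weights (0.02). The mean over all rows of a gene could change no member, since each has 1 row.

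Leaving out 1 array gave log2 differences of 0.36 to 0.39 for Ttc3, 0.37 to 0.51 for Usp16 (limma adjusted p between 0.0522 and 0.584), 0.33 to 0.40 for Psmg1 (0.0106 to 0.106), -0.10 to 0.06 for Psmg2, 0.11 to 0.23 for Psmg3, -0.01 to 0.03 for Psmg4 and -0.03 to 0.08 for Pomp. Between 1 and 2 members in 3 copies and 51 to 63 rows were called. Differences between fold changes were 0.01 to 0.14 for Usp16 minus Ttc3, 0.01 to 0.15 for Usp16 minus Psmg1 and -0.02 to 0.05 for Ttc3 minus Psmg1. The cause of these changes was not tested.

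The labels do not say that replicate numbers pair mice. Deviations of same-numbered mice correlated at 0.507, 0.269, 0.325, 0.0313 and 0.459, and 4 of 5 correlated best with their own number, which is a hint from the data and not the design. With the replicate number as a block, 76 rows were called and the limma adjusted p was 0.0087 for Ttc3, 0.0126 for Psmg1 and 0.124 for Usp16, so it changed no call of a member.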
